A study of Saccharomyces cerevisiae with 12 samples.

Results

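The genes described here make ergosterol, the sterol of yeast membranes, pass electrons to its enzymes, switch them on, store sterol as esters or take it up. They were chosen by name from the pathway, with earlier results of these data known. All 33 were found among the 6174 open reading frames (ORFs) of the arrays. They fall into 9 genes of the mevalonate and isoprenoid steps, 9 from squalene to zymosterol, 5 from zymosterol to ergosterol, 2 electron donors, 3 transcription regulators, 4 genes of ester synthesis and hydrolysis, and 1 uptake transporter. The study asked how transcripts of Saccharomyces cerevisiae change with Hcm1, a forkhead transcription factor of the cell cycle.

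Each array set 2 RNA samples against each other in 2 colours, and each of the 6 comparisons had a pair of arrays, Exp 1 and Exp 2, with the dyes swapped. All strains derive from CML128, a MATa strain with mutations in URA3, HIS4, LEU2 and TRP1, which stands as wild type (WT). Cells grew in rich medium (YPD) at 30 °C to an absorbance of 0.5, and total RNA of whole cultures was labelled. The Δhcm1 strain, in which natMX4 replaces HCM1, was set against WT. The tetHCM1HA strain carries a tetO promoter in front of the tagged gene, HCM1-3HA, and was set against its parent HCM1HA, which holds the tagged gene under its own promoter. Untreated tetHCM1HA was also set against tetHCM1HA treated for 10 h with doxycycline, the antibiotic that represses this promoter. The controls were HCM1HA after 4 h and after 10 h of doxycycline, each against untreated HCM1HA, and untreated HCM1HA against WT. The tet strain with doxycycline is thus also a culture exposed to the antibiotic, and each strain is 1 line in the labels. Mating-type marker levels cannot be checked, since the files hold ratios.

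Ergosterol is built from acetyl-CoA by way of mevalonate, farnesyl diphosphate, squalene and lanosterol. Several late steps use molecular oxygen and heme enzymes, so the pathway is known to be tuned to oxygen, heme and the sterol level. The zinc cluster factors Upc2 and Ecm22 bind sterol regulatory elements in many promoters of the pathway, and surplus sterol is esterified and kept in lipid droplets.

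All values below are log2 ratios, named group over its partner, with each array centred on its own median, so they are differences between 2 samples and not levels. In whole cultures, a change in the share of cells that transcribe a gene cannot be told apart from a change per cell. Arrays held 2520 to 6174 ORFs and 22 to 33 of the sterol genes. In all 6 comparisons 21 of the 33 had a value. HCM1 itself was at -3.36 ± 0.26 in Δhcm1 over WT, at 5.17 ± 0.20 in tetHCM1HA over HCM1HA and at 5.65 ± 0.20 in tetHCM1HA without over with doxycycline (SD, n = 2 arrays). In Δhcm1 over WT the 187 measured ORFs of chromosome IX had a median of -0.92, against 0.0048 for named ORFs elsewhere. None of the 33 sterol genes lies there. Over all ORFs, the arrays of a pair correlated at r = 0.53 to 0.76 in 5 comparisons. In HCM1HA over WT the 2 columns mirror each other (r = -0.999), so only the first was used and its sign is not settled. Each pair of arrays was taken, from the series text, as a dye swap of 1 pair of RNA samples, so the SD of 2 arrays is technical. The test was limma on the 6 comparison values, with its residual taken from the control comparisons. That residual widens with any change in the controls, and its standard errors for sterol genes in the 3 Hcm1 comparisons were 0.31 to 0.75. For those 3 it includes the 10 h doxycycline control, in which limma called 7.54% of 1644 ORFs. Where that control was itself tested, it was left out of the residual. The standard error of ERG5 was thus 0.75 in the Hcm1 comparisons and 0.37 at 10 h. Limma's calls are at a Benjamini-Hochberg adjusted p of 0.05. In each of the 3 Hcm1 comparisons limma called 0 ORFs, so HCM1 itself was not called there either. Not passing in these comparisons therefore does not show that a gene was unchanged. A second fit took arrays as units with the Exp number as a replicate block. Its p-values rest on technical spread, so its counts say only that arrays agreed.

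In Δhcm1 cells most sterol genes lay slightly above WT, and none passed the limma test. The median of the 33 genes was 0.34, against -0.01 over all 5161 ORFs measured on both arrays, and 29 genes had a mean above 0. On both arrays 25 lay above 0, where 29.1% of all ORFs did, and 2 lay below 0, where 35.8% did. No sterol gene was at least 1.5-fold higher on both arrays (0.213% of ORFs were), or at least 1.5-fold lower (5.54%). All shares of ORFs in this comparison include chromosome IX, where 187 measured ORFs had a median of -0.92 and no sterol gene lies. Shares without that chromosome were not counted. On Exp 1 alone 11 genes were at least 1.5-fold higher, and on Exp 2 alone 1 was. The share of all ORFs on single arrays was not counted. Limma called 0 of the 23 genes it could test (0% of 2538 ORFs), with 0 at an unadjusted p under 0.05 and a lowest adjusted p of 1.00. With the replicate block, 15 of 30 genes were called, all higher, against 22.2% of ORFs in either direction. The 2 arrays ordered the sterol genes poorly (r = 0.16 across the genes, which are not independent).

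All 9 genes from squalene to zymosterol lay above 0 on both arrays in Δhcm1 cells, with a median of 0.41. ERG11 (YHR007C), which encodes the lanosterol demethylase that azole drugs inhibit, stood at 0.77 on Exp 1 and 0.46 on Exp 2, a mean of 0.62 ± 0.22. ERG28 (YER044C), the scaffold of the demethylation complex, stood at 0.81 and 0.34, a mean of 0.58 ± 0.33. Both lay above WT on each array, more on Exp 1. ERG27 (YLR100W), the keto reductase of the complex, stood at 0.37 and 0.40. ERG25 (YGR060W), the methyl oxidase, stood at 0.71 and 0.28. ERG24 (YNL280C), the sterol reductase that follows Erg11, stood at 0.39 and 0.47. Each of these 5 genes was under 1.5-fold on at least 1 array. ERG7 (YHR072W), lanosterol synthase, was the lowest of the group, at 0.41 and 0.04.

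The 5 genes from zymosterol to ergosterol also lay above 0 on both arrays of Δhcm1 over WT, with a median of 0.55. ERG2 (YMR202W), the sterol isomerase, had the highest mean of the 33, 0.71 ± 0.67, but its arrays read 1.19 and 0.23. ERG3 (YLR056W), a sterol desaturase, read 0.97 and 0.34, and ERG4 (YGL012W), the last reductase, read 0.71 and 0.40. ERG2 and ERG3 thus owe much of their mean to Exp 1. ERG5 (YMR015C), the heme-containing desaturase of the side chain, was lower and tighter, at 0.41 and 0.34.

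In the mevalonate steps 7 of 9 genes lay above 0 on both arrays of Δhcm1 over WT (median 0.37). HMG1 (YML075C), the main HMG-CoA reductase and the committed step, read 0.76 and 0.26. ERG12 (YMR208W), mevalonate kinase, read 0.58 and 0.38, and ERG20 (YJL167W), farnesyl diphosphate synthase, read 0.36 and 0.37. ERG10 (YPL028W), the thiolase that opens the pathway, read 0.845 and 0.18, and ERG13 (YML126C), HMG-CoA synthase, read 0.71 and 0.20. Both were higher on Exp 1. IDI1 (YPL117C), the isomerase of isopentenyl diphosphate, went the other way on both arrays, at -0.42 and -0.23. MVD1 (YNR043W), mevalonate diphosphate decarboxylase, split, at 0.37 and -0.43. Among the genes outside synthesis, YEH1 (YLL012W), a steryl ester hydrolase of lipid droplets, read 0.33 and 0.61, and ARE2 (YNR019W), the main sterol acyltransferase, read 0.15 and 0.40. AUS1 (YOR011W), an ABC transporter that takes up sterol without oxygen, stayed near 0, at 0.03 and 0.15. SUT1 (YGL162W), a regulator of sterol uptake, was measured in no other comparison and read -0.04 and -0.06. YEH2 (YLR020C), the hydrolase of the plasma membrane, split widely, at 0.66 and -0.41. The regulator UPC2 split too, at 0.53 and -0.09, and so did the electron donor NCP1, at 0.64 and -0.06. The remaining 6 genes that lay above 0 on both arrays of the synthesis steps, HMG2, ERG8, ERG9, ERG1, ERG26 and ERG6, had means of 0.13 to 0.41.

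With HCM1 under the tet promoter, most sterol genes lay slightly below the HCM1HA parent, and none passed the limma test. The median of 30 genes was -0.15, against -0.01 over 3955 ORFs, and 24 genes had a mean below 0. On both arrays 16 genes lay below 0 (33.8% of ORFs) and 4 above 0 (32.4%). At least 1.5-fold lower on both arrays was 1 gene (2.07% of ORFs), YEH1, and 0 were that much higher (4.88%). Limma called 0 of 23 genes (0% of 2435 ORFs), with 0 at an unadjusted p under 0.05. With the replicate block 6 were called, 5 lower and 1 higher, against 23.9% of ORFs.

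In tetHCM1HA over HCM1HA the lowest means were those of YEH1 and ARE2, both of ester metabolism. YEH1 read -0.71 and -0.66, a mean of -0.68 ± 0.03. ARE2 read -0.89 and -0.37, a mean of -0.63 ± 0.37. AUS1 stood apart on the high side, at 0.46 and 0.68. The uptake gene thus had the highest mean of the 30. The ester group has 3 measured genes, of which ARE1 (YCR048W), the other acyltransferase, read 0.21 and 0.02. Within the pathway ERG28 was lowest, at -0.58 and -0.59, just short of 1.5-fold. HMG1 read -0.22 and -0.65, and MVD1 read -0.18 and -0.66. ERG11 was closer to 0 and even, at -0.27 and -0.33. ERG5 and ERG27 lay above 0 on both arrays, at 0.24 and 0.31 for ERG5 and at 0.11 and 0.16 for ERG27. The late steps had a median of -0.09, and only ERG6 (YML008C), the sterol methyltransferase, lay below 0 on both arrays there, at -0.32 and -0.12.

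In the tet strain without doxycycline, most sterol genes lay below their partner, the treated tet strain, and none passed the limma test. The median of 32 genes was -0.52, against 0.00 over 4307 ORFs, and 25 had a mean below 0. On both arrays 23 lay below 0 (37.9% of ORFs) and 7 above 0 (37% of ORFs). At least 1.5-fold lower on both arrays were 11 genes (8.24% of ORFs): HMG1, MVD1, ERG11, ERG24, ERG25, ERG28, ERG3, NCP1 (YHR042W), UPC2 (YDR213W), ARE2 and YEH1. None was that much higher (8.34%). Limma called 0 of 23 genes (0% of 2480 ORFs), and 4 had an unadjusted p under 0.05, with 225 ORFs in all. With the replicate block 20 were called, 18 lower and 2 higher, against 49% of ORFs. The difference includes 10 h of doxycycline, after which ERG5 and ERG3 rose in HCM1HA, as given further on.

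ARE2 was the lowest of all in tetHCM1HA without over with doxycycline. It read -1.90 and -1.49, a mean of -1.70 ± 0.29, or 3.25-fold lower without doxycycline. ARE1 read -0.57 and -1.16, so both acyltransferases lay below 0 on both arrays. YEH1, which releases sterol from esters, read -1.02 and -0.96, and YEH2 was on the other side, at 0.12 and 0.43. Limma could not test these 4 genes, because too few control arrays hold them. AUS1 lay above 0, at 0.39 and 0.86.

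NCP1, the reductase that passes electrons to Erg11 and Erg5, had the lowest adjusted p of the sterol genes here. It read -0.92 and -1.19, a mean of -1.05 ± 0.19, with a limma p of 0.0121 and an adjusted p of 0.301. CYB5 (YNL111C), the cytochrome that serves other sterol and lipid enzymes, read -0.82 and -0.43. Both electron donors thus lay below 0 on both arrays. MVD1 read -0.90 and -1.20, with a limma p of 0.0248 and an adjusted p of 0.404. HMG1 read -0.75 and -0.98, and the adjusted p of limma was 0.527. HMG2 (YLR450W), the second HMG-CoA reductase, stayed near 0, at 0.01 and -0.25. ERG10 read -0.46 and -1.03, short of 1.5-fold on Exp 1, and ERG8 (YMR220W), phosphomevalonate kinase, lay above 0, at 0.24 and 0.20.

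From squalene to zymosterol, 7 of 9 genes lay below 0 on both arrays of this comparison, with a median of -0.59. ERG25, which belongs to the demethylation complex, was lowest, at -0.89 and -1.15, with an adjusted p of 0.532 by limma. ERG11 read -0.63 and -0.86, and ERG7 read -0.45 and -0.73. ERG24 and ERG28 were nearly identical on the pair of arrays, with ERG24 at -0.62 on both and ERG28 at -0.59 and -0.60. So ERG25 and the scaffold gene ERG28 of that complex lay below 0, and its other 2 genes, ERG27 and ERG26, lay above 0. ERG27 read 0.36 and 0.52, and ERG26 (YGL001C), the sterol dehydrogenase of the complex, read 0.03 and 0.18. The late steps lay below 0 in 5 of 5 genes, from ERG3 at -0.62 and -1.09 to ERG5 at -0.16 and -0.21. UPC2 read -0.60 and -0.89 and its paralog ECM22 (YLR228C) read 0.28 and 0.03, so the 2 regulators lay on opposite sides.

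**Figure D1:**
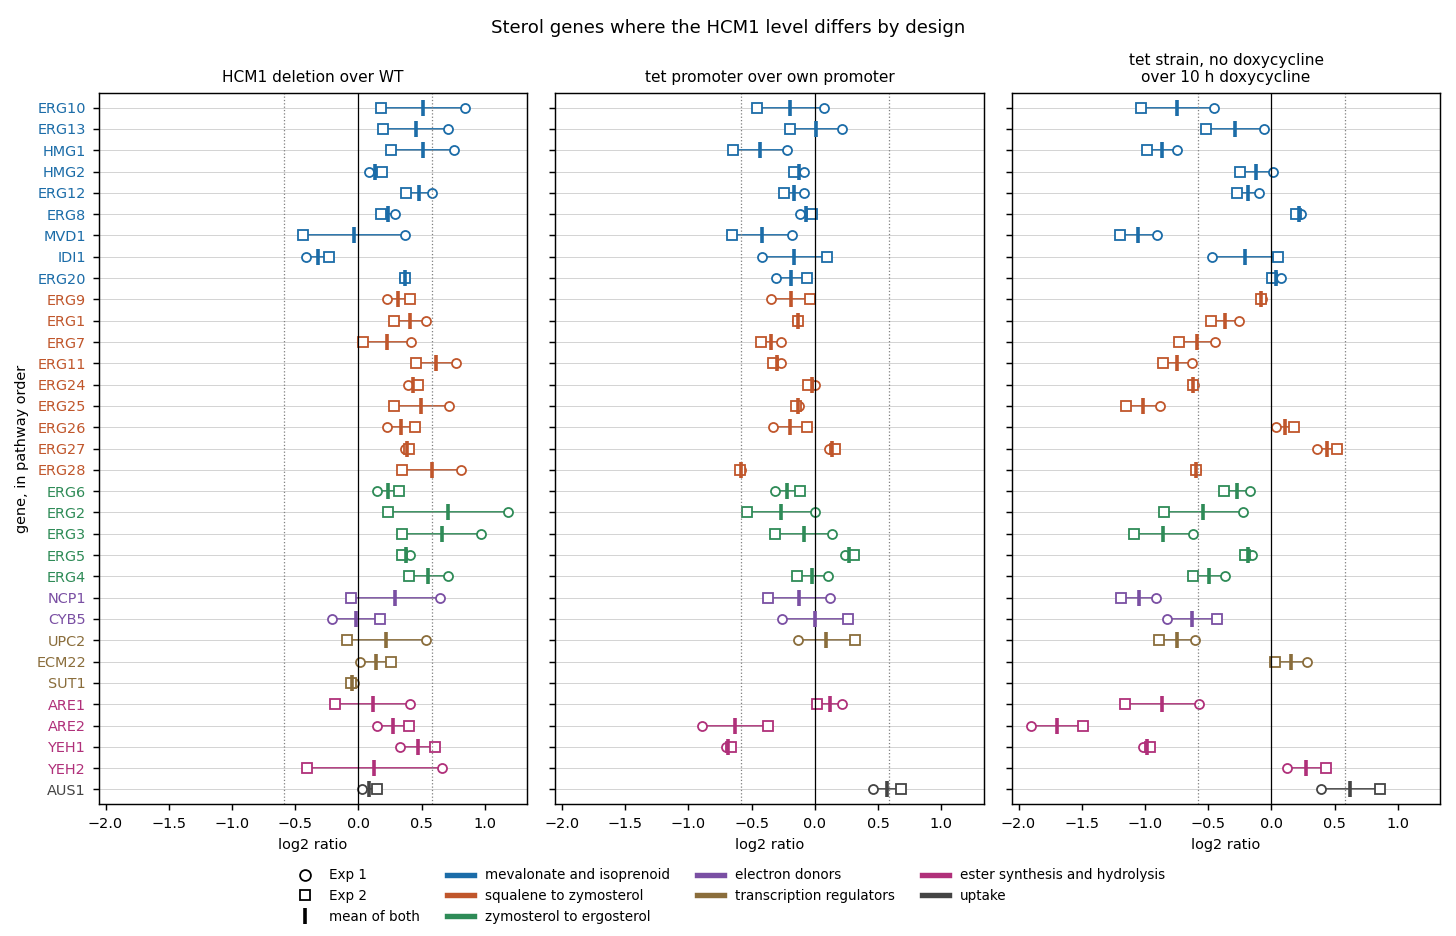
Log2 ratios (x axis) of the 33 sterol genes, in pathway order down the page, in the 3 comparisons where HCM1 differs by design. Circles are Exp 1, squares Exp 2, ticks their mean, and dotted lines mark 1.5-fold; genes without both arrays are left blank. In Δhcm1 over WT 29 means lie above 0, in tetHCM1HA over HCM1HA 24 lie below 0, and without over with doxycycline 25 lie below 0.

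The comparisons of Δhcm1 with WT and of the tet strain use different strains and share no RNA. Of 30 genes measured in both, 15 (50%) lay above 0 on both arrays in Δhcm1 over WT and below 0 on both arrays in tetHCM1HA over HCM1HA, where 5.34% of 3934 ORFs did. None had the reverse pattern, and 3 lay above 0 in both, namely AUS1, ERG27 and ERG5. Against tetHCM1HA without over with doxycycline, 18 of 32 genes (56.2%) had that pattern, where 5.88% of 4271 ORFs did. None had its reverse, and 6 lay above 0 in both, namely AUS1, ECM22, ERG20, ERG26, ERG27 and ERG8. These are counts of signs, and limma called none of the sterol genes that it could test in these comparisons. The shares of all ORFs include chromosome IX. The comparison of tetHCM1HA without over with doxycycline also differs by 10 h of the antibiotic. After 10 h of doxycycline in HCM1HA, 18 of 22 sterol genes had a mean above 0, where 1180 of 2312 ORFs did. The share of doxycycline in the pattern was not tested. The 2 tet comparisons both hold untreated tetHCM1HA cells, so they are not set against each other.

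After 4 h of doxycycline in HCM1HA, which has no tet promoter, the sterol genes lay close to the untreated cells. The median of 23 genes was 0.09, against 0.04 over all 2495 ORFs. On both arrays 12 lay above 0 (36.4% of ORFs) and 3 below 0 (29.5%). None was at least 1.5-fold higher (5.09%) or lower (5.13%) on both arrays, and limma called 0 of 21 genes (0% of 1644 ORFs), with 0 at an unadjusted p under 0.05. With the replicate block 7 were called, 6 higher and 1 lower, against 41.8% of ORFs. ERG4 was highest, at 1.10 and 0.57, with an adjusted p of 0.993 by limma. HMG2 was lowest, at -0.70 and -0.48.

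After 10 h of doxycycline in HCM1HA, ERG5 and ERG3 rose, and other genes of the late steps stood high without passing the test. The median of 22 genes was 0.39, against 0.01 over 2312 ORFs. On both arrays 14 lay above 0 (35.8% of ORFs) and 1 below 0 (35.8%). At least 1.5-fold higher on both arrays were 7 genes (10.3% of ORFs), and none was that much lower (12.2%). Limma called 2 of 21 genes, both higher, where it called 7.54% of 1644 ORFs in either direction. With the replicate block 15 were called, 14 higher and 1 lower, against 58.7% of ORFs. HCM1 stood at 1.37 and 0.68 in the same comparison.

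ERG5 read 1.78 and 1.89 after 10 h of doxycycline over untreated HCM1HA, a mean of 1.84 ± 0.08. That is 3.58-fold higher (SE 0.37 on the log2 scale, adjusted p = 0.00194 by limma). ERG3 read 1.4997 and 0.94, a mean of 1.22 ± 0.39, or 2.33-fold higher (SE 0.37, adjusted p = 0.0405 by limma). Both genes encode desaturases, and the arrays of ERG5 lay closer together. ERG3 lost its call when Exp 1 or Exp 2 was left out of every comparison, at log2 ratios of 0.94 and 1.4997. Leaving them out also changed the residual from the controls, so it does not show that the call needed both arrays of ERG3. The call of ERG3 is also lost with the values as deposited, at an adjusted p of 0.0570 by limma. ERG5 loses its call when all arrays are scaled to the same spread, at an adjusted p of 0.106 by limma.

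The neighbours of these genes in the pathway stood nearly as high after 10 h of doxycycline. ERG2 read 1.75 and 0.67, a mean of 1.21 ± 0.77, with an adjusted p of 0.0535 by limma. ERG4 read 1.40 and 0.81, a mean of 1.10 ± 0.42, with an adjusted p of 0.0877 by limma. ERG6, at the head of the late steps, did not share this, at -0.23 and 0.26. The late steps thus had a median of 1.21 with 4 of 5 genes at least 1.5-fold higher on both arrays. Of the steps before zymosterol, ERG11 read 0.93 and 1.10 (adjusted p = 0.0871 by limma), ERG25 read 0.91 and 0.60, and ERG1 (YGR175C), squalene epoxidase, read 0.59 and 0.60. ERG9 (YHR190W), squalene synthase at the branch from farnesyl diphosphate, was the only gene below 0 on both arrays, at -0.56 and -0.09. No mevalonate gene reached 1.5-fold on both arrays. The highest mean there was that of MVD1, which read 0.77 and 0.29.

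Both control comparisons use untreated HCM1HA as the partner. Between them 16 of 21 genes had a higher mean at 10 h than at 4 h, where 845 of 1970 ORFs did, and the median difference was 0.27, against -0.08 over all ORFs. ERG5 differed most, at 0.11 ± 0.29 after 4 h and 1.84 ± 0.08 after 10 h. ERG4 was already at 0.84 ± 0.38 after 4 h and stood at 1.10 ± 0.42 after 10 h. The difference between the times was not tested.

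**Figure D2:**
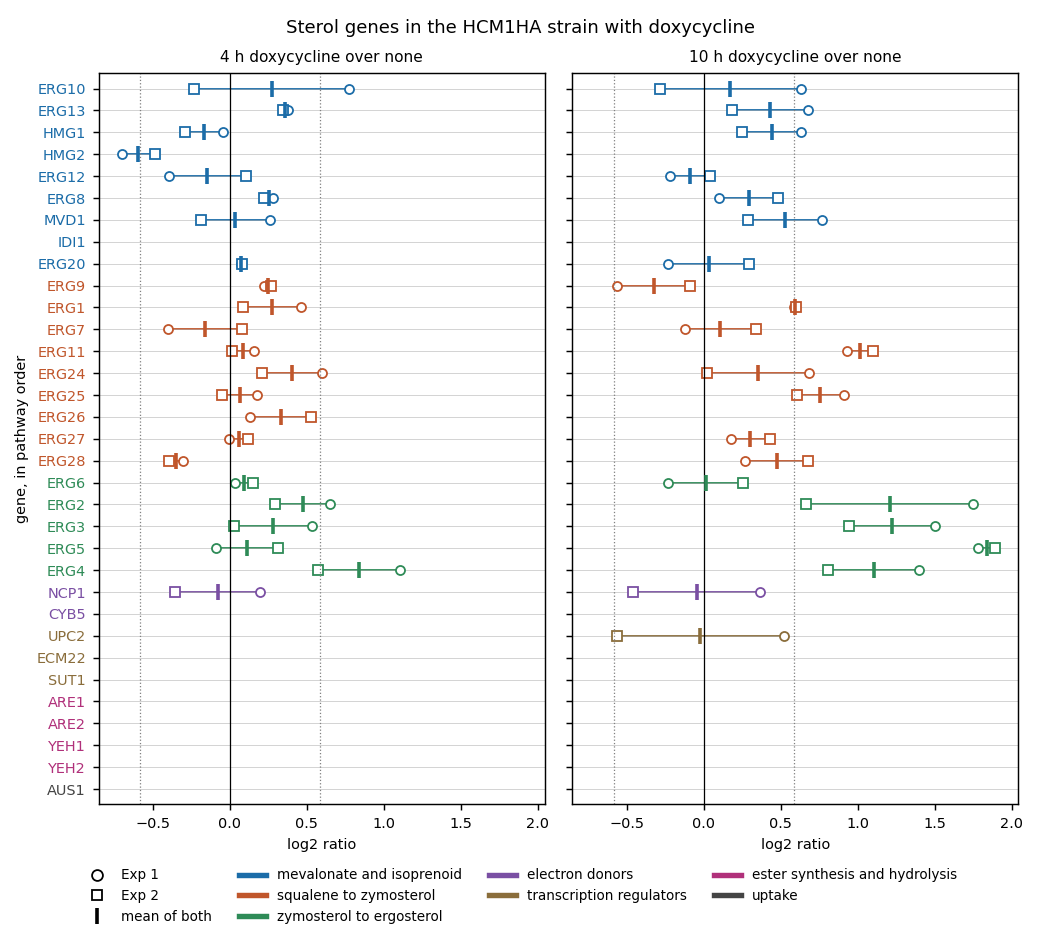
Log2 ratios (x axis) of the sterol genes in the HCM1HA strain after 4 h (left) and 10 h (right) of doxycycline over untreated cells, in pathway order. Circles are Exp 1, squares Exp 2, ticks their mean, and dotted lines mark 1.5-fold; genes without both arrays are blank. At 10 h ERG5 stands at 1.78 and 1.89, and ERG2, ERG3 and ERG4 are past 1.5-fold on both arrays.

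The effect of 10 h of doxycycline can be set side by side in the 2 strains. Adding the HCM1HA ratio (with over without) to the tetHCM1HA ratio (without over with) gives 0 where doxycycline acts alike in both, and a value above 0 where the HCM1HA strain gained more. The median of 22 genes was -0.19, against 0.10 over all 2207 ORFs. That median was 0.048 without Exp 2, and -0.026 with only ORFs on all arrays or with a value on either array, so its direction is not settled. On both arrays 6 lay above 0 (39.8% of ORFs) and 8 below 0 (31.2%). Limma called 0 of 21 genes (7.21% of 1637 ORFs), and 2 had an unadjusted p under 0.05. At least 1.5-fold on both arrays were 1 gene on the high side (16.3% of ORFs) and 0 on the low side (12.9%). With the replicate block 11 were called, 6 higher and 5 lower, against 59.2% of ORFs.

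ERG5 was the gene on the high side, at 1.63 and 1.68, a mean of 1.66 ± 0.04 (SE 0.52, adjusted p = 0.0510 by limma, just short of the threshold). With robust variance shrinkage it was called, at an adjusted p of 0.0264 by limma. It was not called with values as deposited (adjusted p = 0.0720 by limma) or with all arrays scaled to the same spread (0.470). So ERG5, at 1.84 ± 0.08 with doxycycline in HCM1HA, was at -0.18 ± 0.04 in tetHCM1HA without over with doxycycline. NCP1 lay at the other end, at -0.55 and -1.65, with an adjusted p of 0.215 by limma. NCP1 was at -1.05 ± 0.19 in tetHCM1HA without over with doxycycline, and at -0.05 ± 0.59 in HCM1HA with over without. Genes such as ERG3, ERG11 and ERG25 had combined values of 0.37, 0.27 and -0.26, each with a standard error of 0.52. A doxycycline effect of the same size in both strains lies within these errors, as does a difference of 1.5-fold. For ARE2, ARE1 and YEH1, the lowest genes of the tet comparison besides MVD1, NCP1 and ERG25, no 10 h value in HCM1HA exists on both arrays. The share of Hcm1 and of doxycycline in their values therefore cannot be told apart.

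**Figure D3:**
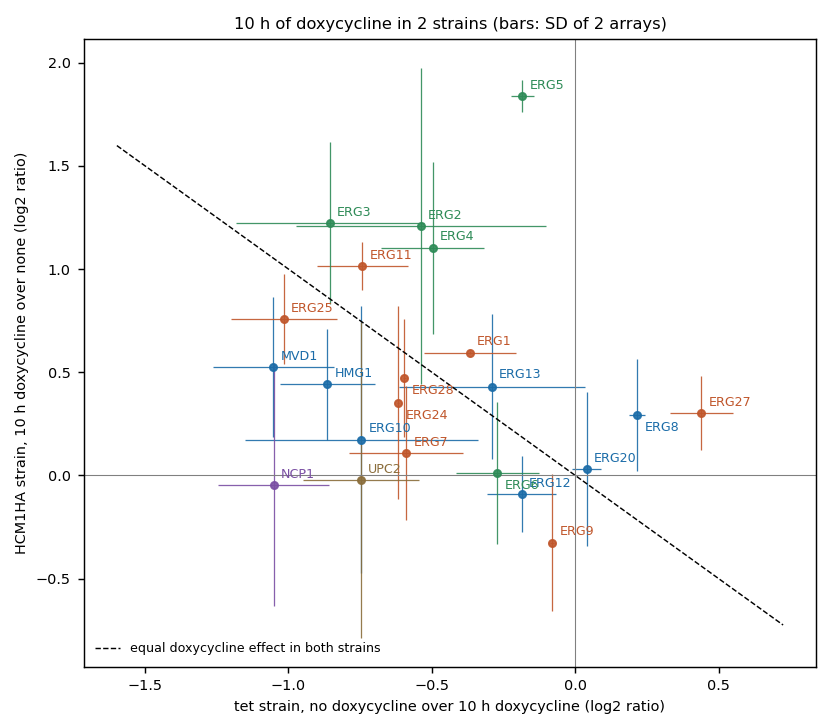
Each point is a sterol gene with both values: tetHCM1HA without over with 10 h of doxycycline (x axis, log2) and HCM1HA with over without 10 h of doxycycline (y axis, log2), with bars for the SD of 2 arrays. The dashed line marks equal effects of doxycycline in both strains. ERG5 lies above the line, with a combined value of 1.66, and NCP1 below it, with -1.10.

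The tag alone was compared in HCM1HA over WT, on 1 column whose sign is not settled, so sizes are given. Of 27 genes, 12 lay on one side of 0 and 15 on the other, where 49.9% of ORFs lay on each side. HMG2 was the 1 gene past 1.5-fold (4.4% of ORFs on that side and 1.57% on the other), with a size of 0.62. ERG2 had a size of 0.47, ERG28 of 0.45 and ERG9 of 0.35. Limma called 0 of 21 genes (0% of 1644 ORFs), with 0 at an unadjusted p under 0.05, and the replicate block called none (0.129% of ORFs). The column carries part of the dye difference described next, with r = 0.47 over 3102 ORFs. Less that difference, ERG2 had a size of 0.11, and HMG2 kept 0.62.

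A dye difference ran through the arrays as a whole, sterol genes included. Exp 1 minus Exp 2 correlated between comparisons at r = 0.56 to 0.68 over all ORFs. Of 21 sterol genes with this difference in 5 comparisons, 10 had the same sign in every one, 9 above 0 and 1 below, where 48.5% of 1837 ORFs kept one sign. ERG10, with the widest mean difference, differed by 0.74 on average, ERG2 by 0.71, NCP1 by 0.57, ERG3 by 0.52 and MVD1 by 0.50. The mean of a dye-swapped pair takes this difference out, and the SD of the pair keeps it. ERG27 was the 1 gene below 0 in every comparison. In Δhcm1 over WT, ERG10 had an SD of 0.47 and ERG2 of 0.67, and ERG5 and ERG24, with little dye difference there, each had 0.05.

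**Figure D4:**
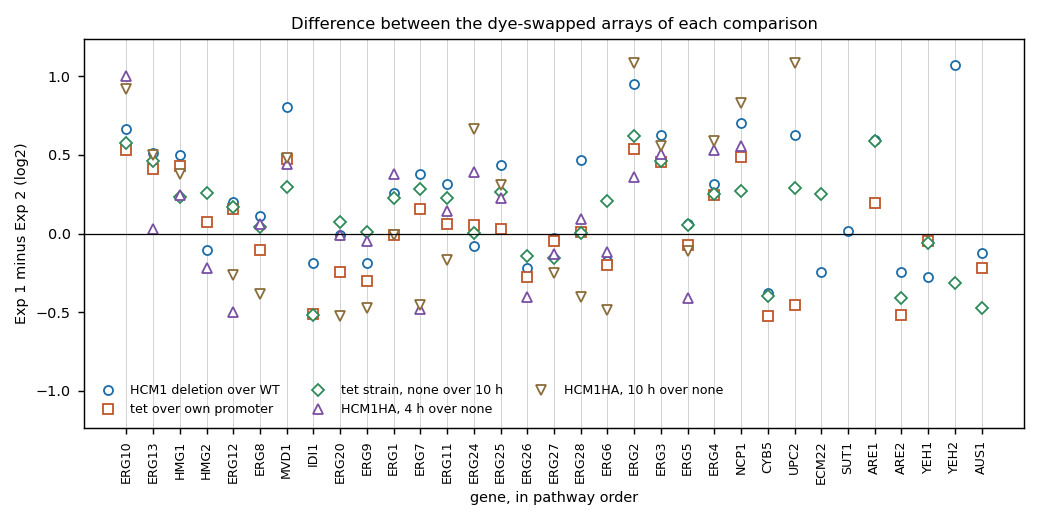
Exp 1 minus Exp 2 (y axis, log2) for each sterol gene in pathway order (x axis), with a marker per comparison. ERG10, ERG13, HMG1, MVD1, ERG25, ERG2, ERG3, ERG4 and NCP1 lie above 0 in all 5 comparisons, and ERG27 below 0 in all 5.

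Genes next to the pathway were read from other lists. Of 12 genes of fatty acid synthesis, desaturation and elongation, 9 were measured after 10 h of doxycycline in HCM1HA, all with a mean above 0 (median 0.43). ELO3, which elongates fatty acids to the very long chains of sphingolipids, rose, at 2.04 and 1.40 (1.72 ± 0.46, adjusted p = 0.00442 by limma). Its relatives ELO1 and ELO2 read 1.46 and 0.74, and 1.18 and 1.01, and did not pass, with adjusted p of 0.0687 and 0.0736 by limma. ELO2 was chosen after its values were seen. In the 3 Hcm1 comparisons limma called 0 of 10 genes of that list. MGA2, an activator of the fatty acid desaturase gene, read -1.58 and -1.15 in Δhcm1 over WT and lies on chromosome IX.

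Of 20 genes of sterol transport and storage, limma called 0 of 5 testable ones in each Hcm1 comparison. OSH3, an oxysterol-binding protein, read -1.71 and -2.18 in tetHCM1HA without over with doxycycline, and -0.76 and -1.57 in Δhcm1 over WT. It lay on the same side in both and could not be tested. LAM6, a sterol transfer protein of membrane contact sites, read 0.97 and 0.86 in tetHCM1HA without over with doxycycline, and 1.0972 and 0.79 in tetHCM1HA over HCM1HA. OSH7, a lipid transfer protein of the same family as OSH3, read 0.98 and 1.21 in tetHCM1HA without over with doxycycline. PDR11, the second sterol uptake transporter, read -0.70 and -0.86 in Δhcm1 over WT and is on chromosome IX. After 10 h of doxycycline in HCM1HA, OSH2 read -0.89 and -0.72. In HCM1HA over WT, the sterol transfer genes YSP2 and LAM4 read -0.69 and -0.64 on the column used, whose sign is not settled.

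Of 12 genes of heme synthesis and oxygen regulation, the medians were 0.10 in Δhcm1 over WT, -0.06 in tetHCM1HA over HCM1HA and -0.08 without over with doxycycline, with 0 of 8 called in each. HEM15, ferrochelatase, read -0.60 and -0.68 after 10 h of doxycycline in HCM1HA. Of 11 genes of the other branches from farnesyl diphosphate, the medians were 0.09, 0.08 and -0.07 in the same order, with 0 of 6 called in each. RER2, a prenyltransferase for dolichol, read -0.65 and -0.77 in tetHCM1HA without over with doxycycline. Of 8 genes that control HMG-CoA reductase and Erg11 proteins, the medians were 0.15, -0.04 and -0.45, with 0 of 5 called in each. HRD1, a ubiquitin ligase that degrades HMG-CoA reductase, read 0.70 and 0.68 in tetHCM1HA without over with doxycycline and 0.61 and 0.81 in tetHCM1HA over HCM1HA. NSG2, which stabilises HMG-CoA reductase, read -0.76 and -0.72 in tetHCM1HA over HCM1HA. SSM4, a ubiquitin ligase of the endoplasmic reticulum, read -1.11 and -0.75 in Δhcm1 over WT and is on chromosome IX. The anaerobic cell wall genes known to respond to Upc2 had 6 of 8 measured in Δhcm1 over WT (median 0.06) and 3 in the other 2 Hcm1 comparisons (medians -0.15 and -0.29), with 0 of 2 called in each. TIR4, a cell wall mannoprotein, read -1.21 and -1.35 after 4 h of doxycycline in HCM1HA.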

How the data were processed

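Two-colour arrays measured total RNA of 4 yeast strains. The authors deposited log2 ratios per ORF, read as log2 from the values and oriented per the labels. Their normalization and software: not given in the sources used here. Each array was centred on its median, and a comparison's value is the mean of its 2 arrays. HCM1HA over WT rests on its first column, because the second mirrors it. No dye swap offsets that column, so its dye difference enters the residual of each test in which it serves as a control. Depth does not apply to arrays, and their number limits the precision. limma 3.58.1 (R 4.3.3) was fitted to the 6 comparison values over all ORFs, its residual being the controls' deviation from 0 (3 degrees of freedom, or 2 for a test of a control), with Benjamini-Hochberg adjustment per comparison. It assumes that the controls hold no true change. The simulated data on which it was run had that assumption built in, so they could not check it. Exp numbers mark the dye orientation: deviations with the same number correlated above 0.1 in every pair of the 5 comparisons with distinct columns, so the replicate block is given. Separate cultures for Exp 1 and Exp 2 are not stated. The members and lists were chosen with earlier results of these data known; of each other list, the genes past 1.5-fold on both arrays are named, at most 2 in each direction and comparison. Gene names come from RefSeq (assembly R64), which named 33 of 33 members and 5675 of 6174 ORFs. No sequence or coordinate is given. Alternatives changed the centring, scaling, coding-length trend, ORF filter, fold, shrinkage, unit, tagged column and arrays used.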

Additional observations from a re-analysis of the deposited data

Results flagged for a closer look

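After 10 h of doxycycline in HCM1HA over the 4 h value, 3 genes had both arrays on one side of 0 at 10 h and both on the other side at 4 h. HMG1 had a difference of 0.61, ERG28 of 0.82 and ERG9 of -0.57 (log2, 10 h minus 4 h). These differences were not tested, and the share of all ORFs with such a change of side was not counted.

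Between strains, 3 genes had both arrays on opposite sides for 10 h of doxycycline, with the HCM1HA value less the tetHCM1HA value, both turned to doxycycline over none, at 0.51 for ERG8, -0.41 for ERG9 and 0.74 for ERG27. Limma's test of this difference gave adjusted p of 0.622, 0.709 and 0.429, so none of the 3 passed. The share of all ORFs on opposite sides between the strains was not counted.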

How the results depend on the processing

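No called result changed direction under the alternatives run. The medians in HCM1HA over WT and of the combined value lie near 0 and changed sign. The fit with arrays as units and the Exp number as replicate block called 15, 6, 20, 7, 15 and 11 sterol genes in Δhcm1 over WT, tetHCM1HA over HCM1HA, tetHCM1HA without over with doxycycline, HCM1HA at 4 h, HCM1HA at 10 h and the combined doxycycline value. Without the block the counts were 1, 1, 13, 2, 8 and 3. Limma's 2 calls at 10 h became 4 with robust shrinkage or with only ORFs on all arrays, 1 with the mean of the tagged columns, with a value on either array, with values as deposited, without Exp 1, or with the tagged column less the dye difference (a setting chosen after seeing the data), and 0 with one spread. Robust shrinkage and the all-array filter each called 1 gene for the combined value, and values as deposited or one spread called 0. Outside the replicate block, the shares of all ORFs called under these settings were not counted.

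Genes past the fold on the high side at the looser threshold were 10 in Δhcm1 over WT, 1 in tetHCM1HA over HCM1HA, 2 without over with doxycycline, 2 in HCM1HA over WT, 2 at 4 h and 3 combined, and on the low side 3 in tetHCM1HA over HCM1HA, 4 in HCM1HA over WT, 1 at 4 h and 2 combined. At 2-fold they were 1 high at 10 h, 1 low without over with doxycycline, 0 low in tetHCM1HA over HCM1HA and 0 in HCM1HA over WT. With one spread the high side held 1 gene in Δhcm1 over WT, 1 in HCM1HA over WT and 3 at 10 h, and the low side 2 in tetHCM1HA over HCM1HA and 1 combined. With the length trend removed the high side held 1 gene in each tet comparison, and the low side 2 in tetHCM1HA over HCM1HA and 0 in HCM1HA over WT. With only ORFs on all arrays the low side held 0 in tetHCM1HA over HCM1HA, 0 in HCM1HA over WT and 7 without over with doxycycline. As deposited, 1 was high at 4 h. For these counts, and for those on single arrays below, the share of all ORFs was not counted.

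Without replicate 1 or replicate 2, the high side ranged from 1 to 11 in Δhcm1 over WT, 0 to 1 in tetHCM1HA over HCM1HA, 0 to 1 without over with doxycycline, 0 to 1 in HCM1HA over WT, 0 to 4 at 4 h, 9 to 12 at 10 h and 5 to 5 combined. The low side ranged from 2 to 4 in tetHCM1HA over HCM1HA, 0 to 1 in HCM1HA over WT, 0 to 2 at 4 h and 1 to 6 combined. In both settings, with 1 array per comparison and controls included, ERG5 kept its call at 10 h and ERG3 lost it. The median ranged from -0.15 to -0.14 in tetHCM1HA over HCM1HA, -0.56 to -0.41 without over with doxycycline, -0.056 to 0.029 in HCM1HA over WT, 0.082 to 0.14 at 4 h, 0.38 to 0.61 at 10 h and -0.16 to 0.048 combined.

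The median in tetHCM1HA over HCM1HA was -0.17 with the length trend removed, -0.18 with one spread and -0.16 with a value on either array. In HCM1HA over WT it was -0.053 as deposited, -0.072 with one spread, -0.0030 with the mean of both columns, 0.0325 with only ORFs on all arrays, 0.0096 with the length trend removed and -0.10 less the dye difference. At 4 h it was 0.17 as deposited, and the combined median was -0.026 with only ORFs on all arrays or a value on either array. The causes were not tested. Signal over background is not in the files, so what it limits is unknown.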
